A study of Mus musculus with 4 samples.

Results

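Neuregulin 1 and the receptors that carry its signal were followed through the cell types of mouse colon tumours, as 4 of the 31053 genes counted: Nrg1, Erbb2, Erbb3 and Erbb4. They were chosen by symbol, and their raw counts were summed over cell types and subsets gated on marker genes. The questions were which myeloid subsets carry the ligand and which epithelial subsets carry the receptors. Nrg1 was concentrated in monocyte/macrophage-like cells, with smaller amounts in dendritic-like and neutrophil-like cells and a high level in a handful of fibroblast-like cells. Among monocyte/macrophage-like cells its level was higher in those low in C1q, although the more numerous cells high in C1q held slightly more of it in total. Erbb2 and Erbb3 were concentrated in epithelial-like cells, and Erbb4 was close to absent.

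Neuregulin 1 is a growth factor of the EGF family, made as a membrane-anchored or secreted protein that is shed by metalloproteases, and it binds ERBB3 and ERBB4. ERBB3 has little kinase activity of its own and signals by pairing with ERBB2, a kinase with no known soluble ligand, and the pair feeds the PI3K and MAPK pathways. ERBB4 is an active kinase that binds neuregulins and several EGFR ligands. In the gut, neuregulin 1 is known as a niche factor for epithelial stem cells and for repair after injury.

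The study asked what loss of the EGF receptor gene Egfr in myeloid cells does to the immune cells of such tumours. Its 4 samples, 1 per group, are CD45+ and CD45- cells of EgfrΔMYL mice, which lack Egfr in the myeloid lineage, and CD45+ and CD45- cells of Egfr fl/fl mice, whose floxed gene is intact. All were female C57BL/6 mice given the carcinogen azoxymethane (AOM, 12.5 mg/kg) and then the colitis agent dextran sulphate sodium (DSS) in 3 cycles of 5 days, at 2.5% and in the last cycle 2%, and the polyps were taken 30 days after the last DSS. The labels do not give the driver of the deletion, the age or the number of animals, and the polyps were digested with collagenase and the cells sorted with CD45 and EPCAM antibodies. Counts came as 1 matrix in which barcodes carry 1 of 4 suffixes, here called libraries 1 to 4, and nothing used here pairs a suffix with a sample. No genotype or sort was therefore compared, no p-value was computed, and the library values below stand alone. The libraries may differ in genotype or sort, and a difference between them cannot be told apart from a difference between groups.

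Values are counts of unique molecular identifiers (UMIs, tags that mark single captured molecules near the 3′ end of a transcript), given per 1000000 UMIs of the group (CPM). Intervals are exact 95% intervals that cover counting error only, not differences between animals. The libraries held 9246770, 17158831, 37642375 and 65481274 UMIs over 18026 barcodes, of which 14198 passed the cell filter and 11937 passed the gate of a single cell type, among them 2201 monocyte/macrophage-like, 2613 neutrophil-like, 626 dendritic-like and 1552 epithelial-like cells. Libraries 1 and 2 stood apart: the filter removed 59.0 and 56.3% of their barcodes, against 8.75 and 4.45% in libraries 3 and 4, and haemoglobin transcripts took 8.90 and 0.98% of UMIs, against 0.0012 and 0.021% in the others. They held 364 and 1119 of the epithelial-like cells, while libraries 3 and 4 held 557 and 1622 of the monocyte/macrophage-like cells, so Nrg1 in myeloid cells was read in libraries 3 and 4 and the receptors in libraries 1 and 2. Of the 12 monocyte/macrophage markers 11 were seen in over 50% of the gated cells and 11 were higher there than in the rest, and 8 and 10 of the 10 epithelial markers met the same limits. Of the dendritic markers, which mark different dendritic subsets, 3 of 8 passed 50%. All of these are the markers that the gates used, so the counts describe the gated cells and are no independent check. Egfr itself had 1 UMI in monocyte/macrophage-like and 3 in neutrophil-like cells, so its deletion could not be checked, and 14 barcode sequences were shared by cells of different libraries.

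The 4 genes lie on different mouse chromosomes (build GRCm38, the build mm10 of the counts; GENCODE M21 positions). Nrg1 (ENSMUSG00000062991) spans chr8:31814551-32884029 on the minus strand and has 18 annotated transcripts, 12 of them coding, which 3′ tags cannot tell apart. Erbb2 (ENSMUSG00000062312) spans chr11:98412470-98437716 on the plus strand, Erbb3 (ENSMUSG00000018166) chr10:128567523-128589652 on the minus strand, and Erbb4 (ENSMUSG00000062209) chr1:68032186-69108059 on the minus strand. RefSeq promoters of build GRCm38.p6 were matched for 2 of the 4 genes, and the 250 bases before their starts are shown beside the counts that each receptor reached in epithelial-like cells, 347 UMIs for Erbb2 and 2 for Erbb4. The Erbb2 window is chr11:98412234-98412483 on the plus strand and the Erbb4 window chr1:69108060-69108309 on the minus strand, both written 5′ to 3′, and capitals mark the CCAAT box.
Erbb2: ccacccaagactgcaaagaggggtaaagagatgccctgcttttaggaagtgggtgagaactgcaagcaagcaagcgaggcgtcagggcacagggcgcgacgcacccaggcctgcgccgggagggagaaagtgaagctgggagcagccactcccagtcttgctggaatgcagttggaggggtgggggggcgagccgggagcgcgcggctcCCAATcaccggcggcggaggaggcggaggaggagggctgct
Erbb4: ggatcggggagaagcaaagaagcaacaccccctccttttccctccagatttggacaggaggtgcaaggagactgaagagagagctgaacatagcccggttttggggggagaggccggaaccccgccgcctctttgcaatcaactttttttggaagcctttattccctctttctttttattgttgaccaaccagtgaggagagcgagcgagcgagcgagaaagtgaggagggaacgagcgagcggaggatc
Guanine and cytosine made up 66% of the Erbb2 window and 54% of the Erbb4 window, against a median of 52.4% over the 32851 promoters of the table. Searched on both strands, the Erbb2 window held CCAAT once, starting 41 bases before the start, and none of GGGCGG (the GC box), TATAAA (the TATA box), CTTTGAT (a TCF/LEF motif) or GCCNNNGGC (an AP-2 motif). The Erbb4 window held none of the 5. Of all promoters, 33.9% held CCAAT, 32.7% GGGCGG, 12.4% TATAAA, 3.21% CTTTGAT and 13.7% GCCNNNGGC, and nothing about the binding of a factor follows from these matches.

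Nrg1, the ligand, had 3594 UMIs in gated cells, and 86.4% of them were in monocyte/macrophage-like cells. Dendritic-like cells held 5.59%, neutrophil-like cells 5.18% and fibroblast-like cells 1.00%. Its level was 107 CPM (104 to 111) in monocyte/macrophage-like cells, against 6.77 CPM (6.19 to 7.40) in all other gated cells, a ratio of 15.9 (14.4 to 17.5). In library 3 the levels were 79.5 and 2.92 CPM (ratio 27.2, 21.2 to 35.5), and in library 4 they were 119 and 12.7 CPM (ratio 9.39, 8.42 to 10.5). Libraries 1 and 2 held only 10 and 12 such cells, with 8 Nrg1 UMIs each. Fibroblast-like cells held more there, 19 UMIs in 7 cells of library 1 and 17 UMIs in 12 cells of library 2. Monocyte/macrophage-like cells thus carried most of the gated ligand in libraries 3 and 4 but not in libraries 1 and 2. The share of each type depends on which cells the libraries held. Of 16891 genes tested, 7.73% were higher by 2-fold or more in the same comparison (on CPM plus 1, with at least 10 UMIs on the higher side), and Nrg1 was one of them.

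Within that class the ligand was uneven from cell to cell. Nrg1 was detected in 35.3% of monocyte/macrophage-like cells (33.3 to 37.3%; median depth 11943 UMIs), against 0.626% of T/NK-like cells, which are not known as a neuregulin source (median depth 4992 UMIs). After every cell was thinned to 1000 UMIs it was seen in 200 of 2171 monocyte/macrophage-like cells (9.21%), against 0.187% of T/NK-like cells. At full depth 1425 of the 2201 cells had none, 253 had 1 UMI, 257 had 2 or 3 and 266 had 4 or more, up to 46 in 1 cell. The 10% of cells with the most Nrg1 held 66.4% of the class's Nrg1 UMIs, so a minority of cells carried most of the transcript.

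C1q, the complement component that tissue macrophages make, separated cells with more and less Nrg1. Monocyte/macrophage-like cells were split at 10 C1qa, C1qb and C1qc UMIs per 10000. Nrg1 stood at 170 CPM (161 to 179) in the 761 C1q-low cells and at 80.4 CPM (76.6 to 84.4) in the 1440 C1q-high cells, a ratio of 2.11 (1.97 to 2.27), and was detected in 49.8 and 27.6% of them. By count the more numerous C1q-high cells held slightly more Nrg1, 1623 against 1482 UMIs. Thinned to 1000 UMIs, 95 of 761 C1q-low cells (12.5%) and 105 of 1410 C1q-high cells (7.45%) had it. C1q-low cells were higher in both libraries, with 118 against 66.3 CPM in library 3 (ratio 1.77, 1.51 to 2.08) and 189 against 86.8 CPM in library 4 (ratio 2.18, 2.01 to 2.36). For comparison, 5.80% of 12378 genes stood 2-fold or more higher in C1q-low cells and 20.3% stood 2-fold or more lower. C1q-low cells also held more erythroid-marker UMIs, 985 CPM against 21.4 CPM, although the median cell of both subsets held none, and neutrophil-marker UMIs were alike at 668 and 659 CPM. Their part in the difference was not tested.

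Nrg1 was also read over bins of C1q. From the lowest to the highest of 6 C1q bins, Nrg1 stood at 170, 168, 144, 145, 88.4 and 41.5 CPM. In library 4 it followed the same order down, with 195, 171, 152, 141, 97.1 and 37.4 CPM. In library 3 the first 4 bins had no order, with 109, 161, 112 and 165 CPM, and the last pair were lower, with 63.8 and 47.8 CPM. Cells above 100 C1q UMIs per 10000 were thus the low end in both libraries. Near the limit, 40 cells just below it had 224 CPM and 64 cells just above it had 143 CPM.

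**Figure D1:**
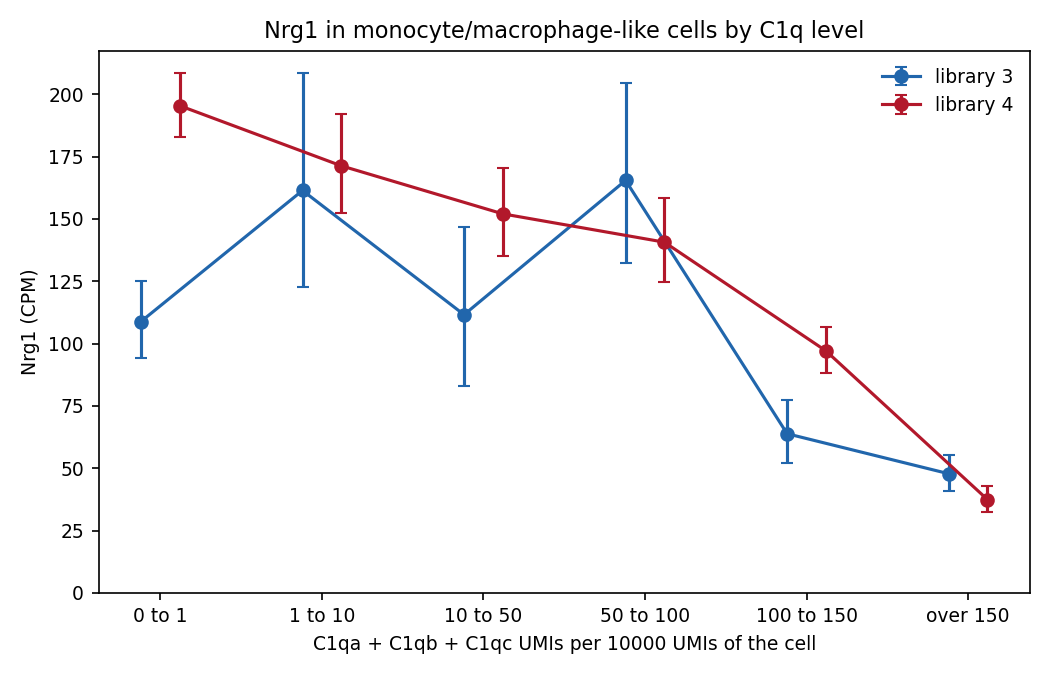
Nrg1 level (CPM, y axis) of monocyte/macrophage-like cells in 6 bins of C1qa, C1qb and C1qc UMIs per 10000 UMIs of the cell (x axis), for libraries 3 (blue) and 4 (red), with bars for exact 95% Poisson intervals. Both libraries are lowest above 150, at 47.8 and 37.4 CPM, while library 3 has no order among the first 4 bins.

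Depth differed little between the C1q subsets, with medians of 11301 UMIs in C1q-low and 12896 UMIs in C1q-high cells. At 5000 to 10000 UMIs per cell the ratio of C1q-low to C1q-high was 1.93 (1.58 to 2.35), at 10000 to 20000 it was 1.86 (1.70 to 2.04), and above 20000 it was 2.26 (1.74 to 2.89). At 2000 to 5000 UMIs only 38 C1q-low cells remained, and the levels of 160 and 146 CPM differed by less than their counting error (ratio 1.10, 0.67 to 1.75). Above 5000 UMIs per cell the difference was therefore close in size to that over all cells.

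Monocyte markers (Ly6c2, Ccr2, Vcan, Chil3, Plac8 and F13a1, at least 3 detected) divided the subsets further. Among C1q-low cells Nrg1 stood at 177 CPM (168 to 187) in the 663 cells with monocyte markers and at 116 CPM (97.2 to 138) in the 98 without, a ratio of 1.52 (1.27 to 1.84). This order held in library 4, with 198 against 117 CPM, but not in library 3, with 115 against 132 CPM and overlapping intervals. Among C1q-high cells it stood at 120 CPM (106 to 136) in the 126 cells with monocyte markers and at 75.8 CPM (71.8 to 79.9) in the 1314 without. There too the order came from library 4, with 138 against 80.3 CPM, and library 3 had 66.9 against 66.3 CPM.

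The lipid-associated and resident-type marker sets gave smaller differences. Cells with at least 3 of Trem2, Gpnmb, Fabp5 and Cd9 had 93.0 CPM, against 121 CPM in cells without (ratio 0.77, 0.72 to 0.83). Cells with at least 2 of Mrc1, Cd163, Folr2, Lyve1 and Timd4 had 104 CPM, against 108 CPM (ratio 0.97, 0.84 to 1.10), a difference within counting error.

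Spp1 and Arg1, which encode the matrix protein osteopontin and arginase 1, mark a macrophage state described in tumours. Cells with at least 3 Spp1 and Arg1 UMIs per 10000 had 128 CPM of Nrg1 (120 to 137), against 100.4 CPM (96.2 to 105) in cells with fewer, a ratio of 1.28 (1.18 to 1.38). This difference came from library 4, with 153 against 109 CPM (ratio 1.41, 1.29 to 1.54). Library 3 had 80.2 against 79.2 CPM (ratio 1.01, 0.85 to 1.20), and without library 4 the log2 fold was -0.0091, so the call does not hold across libraries. It had the same direction on both sides of the C1q limit, at 189 against 162 CPM among C1q-low cells (ratio 1.16, 1.04 to 1.30) and 97.6 against 75.0 CPM among C1q-high cells (ratio 1.30, 1.17 to 1.45). With clusters in place of gates, a whole cluster counted as positive by its median. Nrg1 stood at 225 CPM in the 658 cells of the 1 positive cluster, and at 89.5 CPM in the 1945 others. The positive cluster was also C1q-low, while 1585 of the others were in C1q-high clusters. The other C1q-low cluster, of 360 cells, had 136 CPM, so this contrast is not separate from the C1q split. Of those 658 cells 53.2% were in the monocyte/macrophage gate, so the gated comparison left many of them out. In the gated cells erythroid-marker UMIs were again unequal, with 1176 CPM in Spp1/Arg1-positive and 21.1 CPM in Spp1/Arg1-negative cells, and their part was not tested.

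In dendritic-like cells, which present antigen to T cells, 1 subset carried most of the ligand. Dendritic-like cells had 24.8 CPM of Nrg1 (21.5 to 28.5), well under the monocyte/macrophage-like 107 CPM (ratio 0.231, 0.199 to 0.266), with 9.48 CPM in library 3 and 33.8 CPM in library 4. With at least 2 of Ccr7, Fscn1 and Ccl22, genes of dendritic cells that migrate to lymph nodes, cells held 179 of the 201 UMIs, at 48.0 CPM (41.2 to 55.6) in 369 cells. Cells with at least 2 of Cd209a, Clec10a and Sirpa had 15.4 CPM (9.12 to 24.3), and cells with both Xcr1 and Clec9a, which carry genes of cross-presenting dendritic cells, had 1 UMI in 84 cells, or 0.53 CPM. The Ccr7/Fscn1/Ccl22-positive level was 3.12 times (1.92 to 5.38) the Cd209a/Clec10a/Sirpa-positive one. It was 18.8 CPM in library 3 and 65.0 CPM in library 4, so its size depended on the library. Over all dendritic-like cells the level also moved with depth. It was 33.7 CPM at 2000 to 5000 UMIs per cell, 52.8 at 5000 to 10000 and 30.5 at 10000 to 20000. In the 102 cells above 20000 it was 4.02 CPM (2.01 to 7.20). The dendritic subsets were not compared at matched depth. When all cells were thinned to 1000 UMIs before gating, which left 306 dendritic-like cells with 22 Nrg1 UMIs, their level no longer lay below that of monocyte/macrophage-like cells (log2 fold -0.0053).

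Neutrophil-like cells had 20.7 CPM of Nrg1 (17.8 to 23.9) in 2613 cells, likewise below the monocyte/macrophage-like level (ratio 0.193, 0.165 to 0.224). Those positive for at least 3 of Acod1, Hcar2, Ccl3 and Ccl4, genes of activated neutrophils, had 27.1 CPM (23.0 to 31.6), those positive for at least 2 of the granule genes Camp, Ltf, Ngp and Mmp8 had 3.23 CPM (0.67 to 9.43; 3 UMIs in 1 cell), and the rest had 11.5 CPM (7.53 to 16.9). The level moved with depth: it was 8.54 CPM below 2000 UMIs per cell, 9.39 at 2000 to 5000, 17.9 at 5000 to 10000 and 118 (95.2 to 146) at 10000 to 20000. That last bin holds 59 cells with 90 of the 186 UMIs, and 9 deeper cells had 21.6 CPM. In those 59 cells a median of 3 macrophage markers was detected and macrophage markers took 2702 CPM, against 1 to 2 markers and 1228 to 1701 CPM in the shallower cells and 21594 CPM in monocytes/macrophages of that depth range. Within that depth the log2 fold to monocyte/macrophage-like cells was -0.10, against -2.32 over all cells. The part of captured macrophage RNA or of paired cells in the neutrophil-like signal was not tested.

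**Figure D2:**
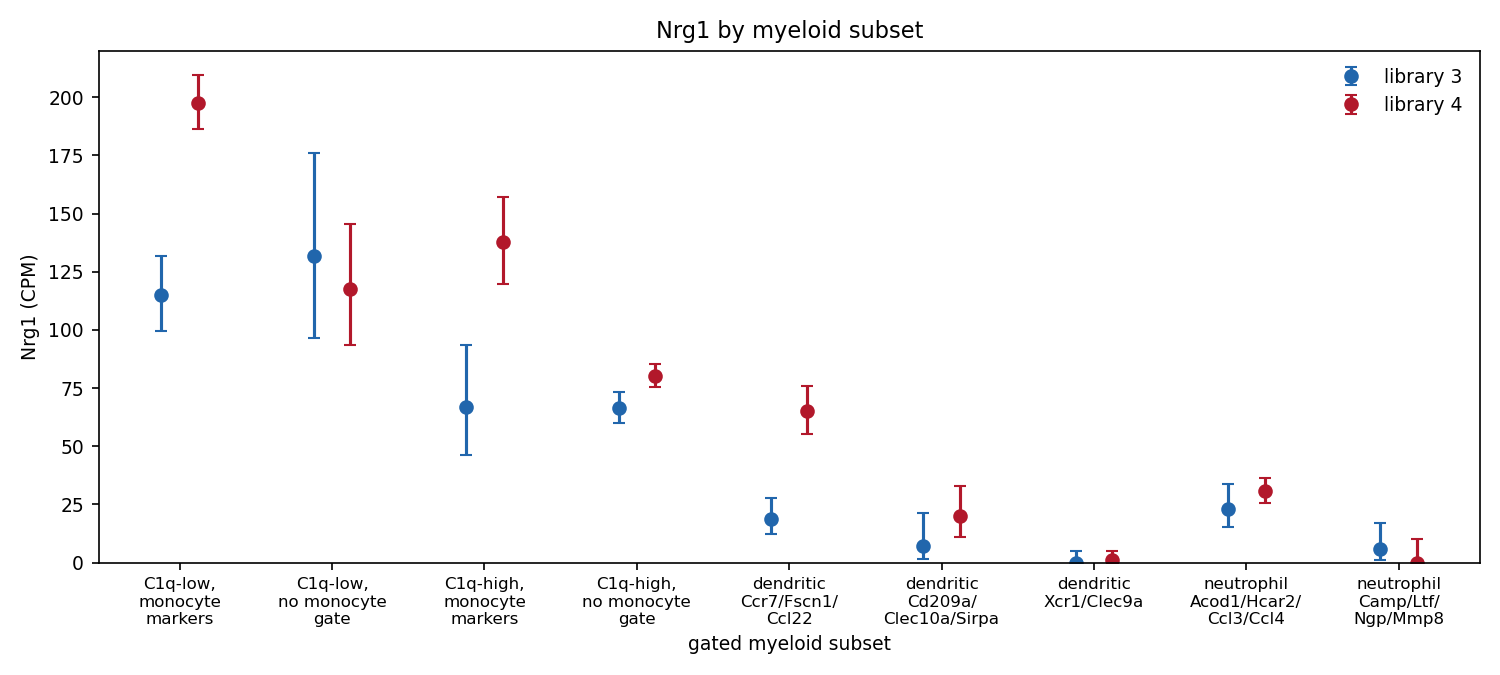
Nrg1 level (CPM, y axis) in 9 gated myeloid subsets (x axis), for libraries 3 (blue) and 4 (red), with bars for exact 95% Poisson intervals. The C1q-low cells with monocyte markers stand at 115 and 198 CPM, and the Ccr7/Fscn1/Ccl22-positive dendritic-like cells differ between libraries, at 18.8 and 65.0 CPM.

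The highest level of all was in fibroblast-like cells, at 338 CPM (236 to 467), above the monocyte/macrophage-like 107 CPM (ratio 3.14, 2.20 to 4.36). It rests on 36 UMIs in 7 of 19 cells, with up to 10 in 1 cell. Library 1 had 19 UMIs in 4 of 7 cells and library 2 had 17 UMIs in 3 of 12 cells, and none of the 19 cells showed more than 1 macrophage marker. Fibroblast-like cells were thus a second source by level, in both libraries that held them, and too few for a share of the total.

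The other types lay far lower. T/NK-like cells had 2.07 CPM (34 UMIs), B-like cells 1.56 CPM and plasma-like cells 0.89 CPM. Mast-like cells had 8.66 CPM from 2 UMIs and erythroid-like cells 2.79 CPM from 2 UMIs. Epithelial-like cells had 5 Nrg1 UMIs in 1552 cells, or 0.29 CPM (0.095 to 0.68), and 4 of these were in library 4. Basophil-like and endothelial-like cells had none, which allows up to 15.1 and 16.4 CPM at this depth. In order of level the types run from fibroblast-like through monocyte/macrophage-like to dendritic-like and neutrophil-like cells, and the intervals of the last pair overlap.

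**Figure D3:**
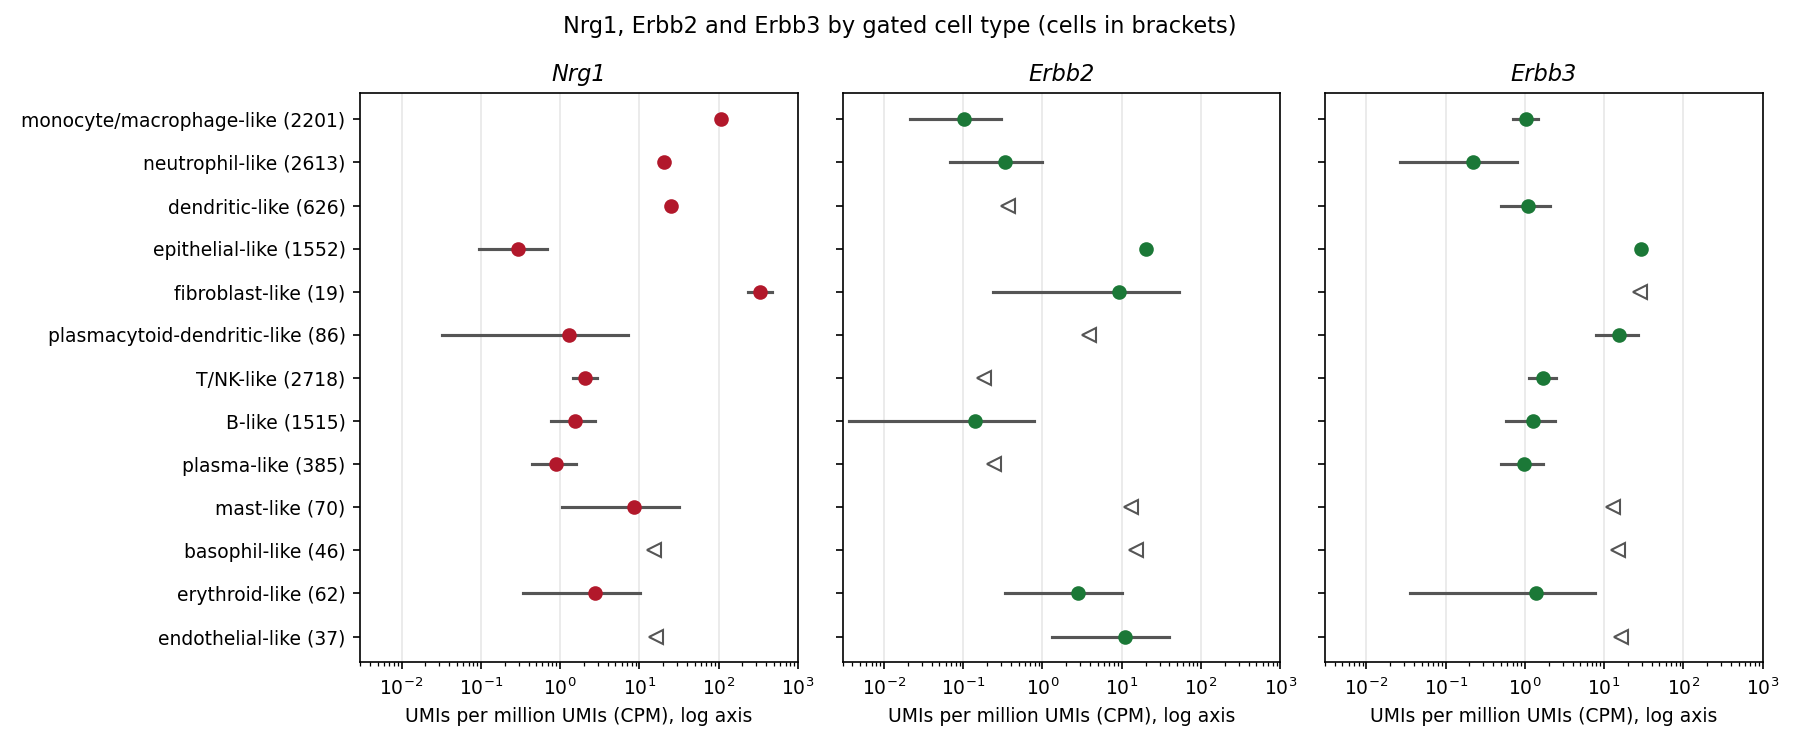
Levels of Nrg1, Erbb2 and Erbb3 (CPM, log axis) in 13 gated cell types (rows, number of cells in brackets), with bars for exact 95% Poisson intervals. Open triangles mark types with 0 UMIs, at the level that 3 counts would give. Among these 13 types Nrg1 peaks in fibroblast-like (338 CPM) and monocyte/macrophage-like cells (107 CPM), and Erbb2 and Erbb3 in epithelial-like cells (20.3 and 29.6 CPM). The 3 glial-like cells are not drawn, and held 4 Erbb3 UMIs and 1 Erbb2 UMI among 7732 UMIs.

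Genes that went with Nrg1 inside macrophages were sought in cells of equal depth. Among monocyte/macrophage-like cells thinned to 1000 UMIs, the 200 with Nrg1 were set beside the 1971 without, over 4844 genes, and the 5 highest and 5 lowest ratios were taken. Highest were Saa3 (an acute-phase protein), at 325 against 51.2 CPM (ratio 6.35, 4.58 to 8.76), and Serpinb2 (a plasminogen activator inhibitor), at 290 against 46.7 CPM (ratio 6.22, 4.40 to 8.74). Ccl5 (a chemokine for T cells) had a ratio of 4.91 (3.86 to 6.22), Nos2 (inducible nitric oxide synthase) 5.05 (2.84 to 8.75) and Arg2 (arginase 2) 3.95 (2.57 to 5.94). The 5 lowest, Tmem86a, Hist1h2bc, Mpp6, Smarcc2 and the haemoglobin gene Hbb-bt, had no UMI in Nrg1-positive cells. Their exact intervals allow ratios of up to 0.28 for Tmem86a, 0.44 for Hist1h2bc, 0.52 for Mpp6, 0.54 for Hbb-bt and 0.58 for Smarcc2. Saa3, Serpinb2 and Nos2 are known to be induced in inflammatory macrophages. All these values describe cells picked for Nrg1 and are the extremes of many genes. Cells with Nrg1 were more often C1q-low, and neither C1q subset nor library was held equal between the sides. The part of the C1q split in these ratios was not tested.

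Across 22 gated types and subsets with at least 50 cells, the 5 genes whose log2 levels were most like Nrg1 were Adgre4 (Pearson r 0.93), Fcrlb, Clec4n, Clec4a1 and Gm48065 (0.91 each), out of 12963 candidates. Adgre4 encodes an adhesion receptor of myeloid cells and Clec4n the lectin dectin-2. The 22 points share libraries and include nested subsets, so r is a description.

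Erbb2, the kinase partner, had 347 of its 360 gated UMIs (96.4%) in epithelial-like cells. Its level was 20.3 CPM (18.2 to 22.5) in epithelial-like cells, against 0.155 CPM in all other gated cells (13 UMIs; ratio 131, 75.6 to 248). By library the epithelial level was 27.6 CPM in library 1, 17.5 in library 2 and 16.7 in library 4, with 0 UMIs in the 18 cells of library 3. It was detected in 17.5% of epithelial-like cells (15.7 to 19.5%), and in 48 of 1413 after thinning (3.40%). T/NK-like cells, at 0 UMIs, allow up to 0.18 CPM, and plasma-like and dendritic-like cells also had none. Some sparse types held it, with 2 UMIs in 37 endothelial-like, 1 in 19 fibroblast-like and 1 in 3 glial-like cells. Those counts are too few for a level.

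Erbb3, the neuregulin-binding partner, had 507 of 614 gated UMIs (82.6%) in epithelial-like cells. Its level was 29.6 CPM (27.1 to 32.3) in epithelial-like cells, against 1.27 CPM in all other gated cells (ratio 23.2, 18.8 to 28.9). By library the epithelial level was 44.4 CPM in library 1, 24.0 in library 2, 32.9 (from 2 UMIs) in library 3 and 16.7 in library 4. It was detected in 21.7% of epithelial-like cells (19.7 to 23.8%; median depth 7436 UMIs), against 1.03% of T/NK-like cells. Of 16844 genes, 30.7% stood 2-fold or more higher on the epithelial side on the CPM plus 1 scale, so a higher level there is common, and both receptors were among them. In libraries 1 and 2, where most gated cells are epithelial-like, cells of other types had 1.96 and 5.08 CPM of Erbb2 and 0.65 and 8.90 CPM of Erbb3, and the ratios within library 2 were 3.43 (1.32 to 12.7) for Erbb2 and 2.69 (1.29 to 6.76) for Erbb3. Within library 4 they were 167 (42.4 to 691) and 13.9 (4.91 to 32.1). Of the 7 Erbb3 UMIs behind the library 2 value of the other types, 4 were in the 3 glial-like cells. The part of free RNA in the other types was not tested.

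Epithelial subsets were gated within the 1552 cells: 583 positive for at least 2 of Wif1, Notum and Nkd1, which encode feedback inhibitors of Wnt signalling and mark tumour cells with an active pathway, 165 goblet-like cells with at least 3 mucus-cell genes, 58 cells with at least 2 absorptive markers, 66 in several of these gates and 680 in none. Over all libraries Erbb3 stood in goblet-like cells at 46.0 CPM (37.1 to 56.3), with 38.4 CPM (23.8 to 58.7) in absorptive-marker cells, 21.6 CPM (18.7 to 24.8) in Wif1/Notum/Nkd1-positive cells and 33.7 CPM (28.3 to 39.9) in cells of none of the 3 gates. Goblet-like cells had 56.7 CPM in library 1 and 37.2 in library 2, Wif1/Notum/Nkd1-positive cells 27.6 and 20.3, absorptive-marker cells 37.0 and 41.7 (11 and 10 UMIs), and ungated cells 47.6 and 26.8. The Wif1/Notum/Nkd1-positive level was the lowest of the 4 in both libraries, and goblet-like cells lay highest in library 1 but not in library 2.

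Set against the remaining epithelial-like cells (those of the other subsets and of no gate, without the 66), goblet-like cells had 46.0 against 25.9 CPM of Erbb3, a ratio of 1.78 (1.40 to 2.24), with 1.51 (1.08 to 2.09) in library 1 and 1.66 (1.15 to 2.35) in library 2. Wif1/Notum/Nkd1-positive cells had 21.6 against 37.9 CPM, a ratio of 0.57 (0.47 to 0.69), with 0.56 (0.38 to 0.79) and 0.66 (0.51 to 0.85) in the libraries. Absorptive-marker cells had 38.4 against 28.1 CPM, a ratio of 1.36 (0.84 to 2.11) that counting error covers. Goblet-like over Wif1/Notum/Nkd1-positive cells gave 2.13 (1.65 to 2.74), and goblet-like cells over cells of none of the 3 gates 1.36 (1.04 to 1.78). None of these reached the 2-fold limit on the CPM plus 1 scale against the remaining cells, which 5.60% of 13455 genes passed upward and 16.0% downward in goblet-like cells, and 9.88 and 11.0% of 13162 genes in Wif1/Notum/Nkd1-positive cells.

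Erbb2 was low in the same Wnt-active cells but not high in goblet-like cells. It stood at 14.5 CPM (12.1 to 17.2) in Wif1/Notum/Nkd1-positive cells, 21.0 CPM (15.2 to 28.3) in goblet-like cells, 31.1 CPM (18.1 to 49.8) in absorptive-marker cells and 32.7 CPM (27.4 to 38.8) in cells of none of the 3 gates. Wif1/Notum/Nkd1-positive cells had 14.5 against 29.0 CPM in the remaining cells, a ratio of 0.50 (0.40 to 0.63), with 0.44 (0.27 to 0.69) in library 1 and 0.58 (0.43 to 0.77) in library 2. Goblet-like cells had 21.0 against 20.6 CPM (ratio 1.02, 0.72 to 1.41) and absorptive-marker cells 31.1 against 20.3 CPM (ratio 1.53, 0.88 to 2.50), neither beyond counting error. The absorptive value came from 17 UMIs, and under a stricter cell filter its direction turned (log2 fold -0.71). Of 13589 genes, 4.97% stood 2-fold or more higher and 35.6% lower in absorptive-marker cells.

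**Figure D4:**
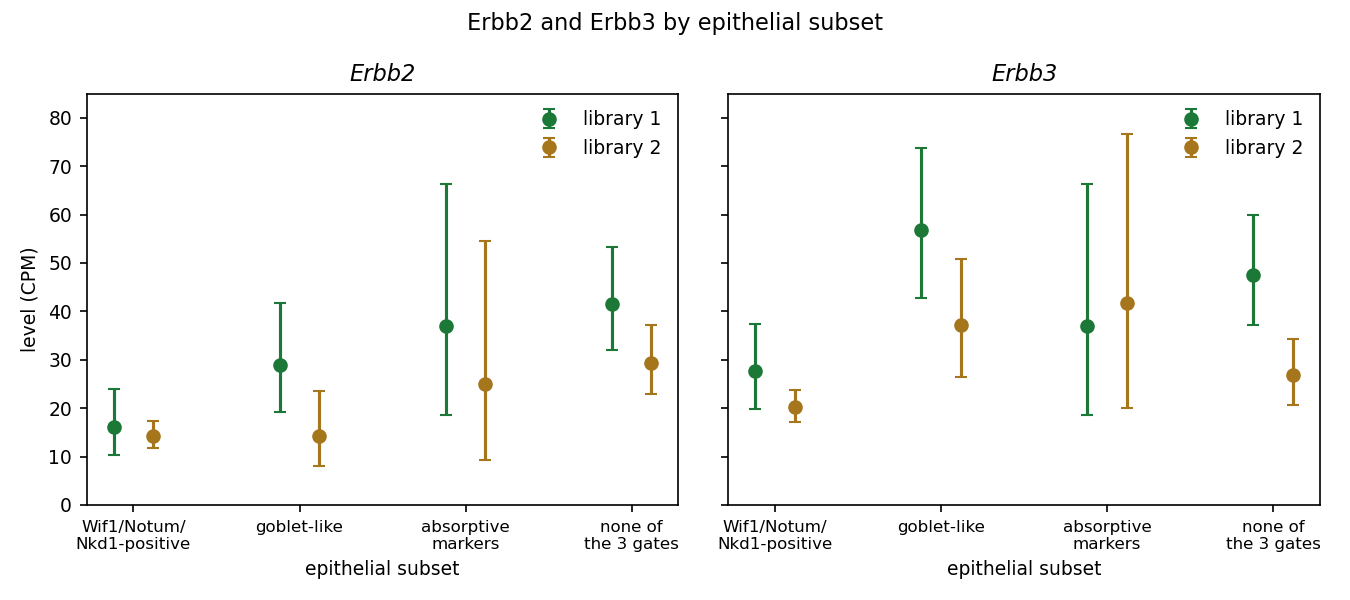
Levels of Erbb2 and Erbb3 (CPM, y axis) in 4 epithelial subsets (x axis), for libraries 1 (green) and 2 (brown), with bars for exact 95% Poisson intervals. Wif1/Notum/Nkd1-positive cells are lowest for Erbb3 in both libraries, at 27.6 and 20.3 CPM, and goblet-like cells stand at 56.7 and 37.2 CPM.

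Depth was unequal among these subsets, with medians of 14791 UMIs in Wif1/Notum/Nkd1-positive, 8714 in goblet-like, 3552 in absorptive-marker and 2725 in ungated cells, so the comparison was repeated in cells of like depth. For Erbb3, goblet-like over Wif1/Notum/Nkd1-positive gave 1.38 (0.54 to 3.32) at 5000 to 10000 UMIs, 1.81 (1.10 to 2.87) at 10000 to 20000 and 2.71 (1.88 to 3.90) above 20000. This difference was there in the deeper cells and was within counting error in the shallower ones. Wif1/Notum/Nkd1-positive cells against ungated cells were less steady. For Erbb3 the ratio was 1.28 (0.79 to 2.16) at 10000 to 20000 UMIs and 0.45 (0.31 to 0.66) above 20000, and for Erbb2 it was 0.84 (0.52 to 1.41) and 0.37 (0.23 to 0.60). Within 10000 to 20000 UMIs the log2 fold of Wif1/Notum/Nkd1-positive over all remaining cells was -0.12 for Erbb3 and -0.28 for Erbb2, against -0.78 and -0.95 at all depths. The lower receptor level of Wnt-active cells was thus seen over all cells and above 20000 UMIs, and was within counting error in the depth bin that holds the most of them. Erythroid-marker UMIs also ran in the opposite order to depth, with 2113 CPM in Wif1/Notum/Nkd1-positive, 2583 in goblet-like, 5221 in absorptive-marker and 10211 in ungated cells. Without the 33 epithelial-like cells over 1% haemoglobin, the Wif1/Notum/Nkd1-positive log2 folds were -0.95 for Erbb2 and -0.79 for Erbb3. The part of erythroid UMIs in the cells below that limit was not tested.

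**Figure D5:**
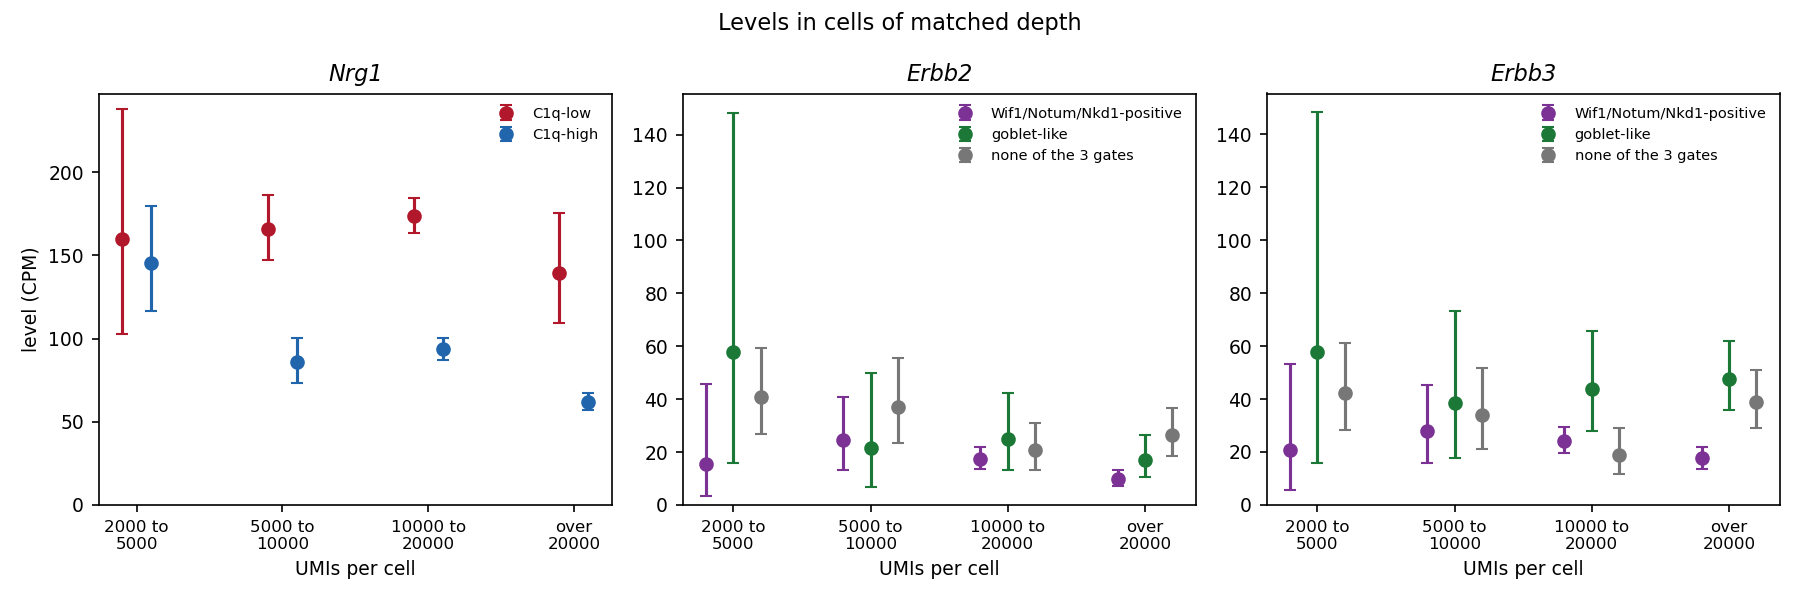
Levels (CPM, y axis) in 4 bins of UMIs per cell (x axis): Nrg1 in C1q-low (red) and C1q-high (blue) cells, and Erbb2 and Erbb3 in Wif1/Notum/Nkd1-positive (purple), goblet-like (green) and ungated (grey) epithelial-like cells, with bars for exact 95% Poisson intervals. C1q-low cells lie above C1q-high cells in each bin over 5000 UMIs, and Erbb3 of goblet-like cells lies above that of Wif1/Notum/Nkd1-positive cells in the bins over 10000.

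Other epithelial marker sets crossed these gates. Cells with at least 2 stem genes (Lgr5, Ascl2, Smoc2 and Axin2) had 17.2 against 25.6 CPM of Erbb2 (ratio 0.67, 0.54 to 0.84) and 27.4 against 33.5 CPM of Erbb3 (ratio 0.82, 0.68 to 0.98). Cells with at least 2 division genes had 22.8 against 33.7 CPM of Erbb3 (ratio 0.68, 0.55 to 0.82) and 18.5 against 21.4 CPM of Erbb2 (ratio 0.86, 0.69 to 1.08). The stem and division ratios were read over all libraries and depths and matched for neither, and the part of depth was not tested. The 18 cells with tuft-cell genes had 34.3 CPM of Erbb2 and 19.1 CPM of Erbb3, and the 25 with enteroendocrine genes 16.3 and 21.7 CPM, from 3 to 9 UMIs each.

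Both receptors were seen in the same cell in 97 of 1552 epithelial-like cells (6.25%). Erbb2 was detected in 28.8% of Erbb3-positive and 14.4% of Erbb3-negative cells, but cells with both had a median of 18828 UMIs and cells with neither 4376. Thinned to 1000 UMIs, only 4 of 1413 cells showed both, too few to say whether the receptors go together beyond depth. Of Wif1/Notum/Nkd1-positive cells 36 of 583 had both, and of goblet-like cells 15 of 165. Nrg1 and Erbb3 met in 11 of 2201 monocyte/macrophage-like cells and in 1 epithelial-like cell.

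Outside the epithelium Erbb3 was also read in plasmacytoid-dendritic-like cells, the interferon-producing dendritic type. It stood there at 15.3 CPM (7.93 to 26.8), with 12 UMIs in 11 of 86 cells over 3 libraries, against 1.71 CPM in T/NK-like cells (ratio 8.98, 4.16 to 18.2). Of those 11 cells 3 were in library 3 and 7 in library 4, which held 18 and 51 epithelial-like cells. At least 2 epithelial markers were seen in 5 of the 11, against 13 of the 75 cells without Erbb3. None of 85 cells kept the gene after thinning, but so few UMIs are left at that depth that this decides nothing. Egfr had 8 UMIs in the same type, none of them in a cell with Erbb3. The 3 glial-like cells, all in library 2, held 4 Erbb3 UMIs among 7732 UMIs. That is above the epithelial-like level, from very few counts. Monocyte/macrophage-like cells had 1.04 CPM (30 UMIs). The part of epithelial RNA in these readings was not tested.

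Erbb4, the other neuregulin receptor, had 6 UMIs in all barcodes and 2 in gated cells, both in epithelial-like cells, or 0.12 CPM (0.014 to 0.42). Its 0 UMIs in monocyte/macrophage-like cells allow up to 0.10 CPM.

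Over the 22 types and subsets Erbb2 and Erbb3 had r = 0.88, and Nrg1 had r = -0.55 with Erbb2 and -0.57 with Erbb3, all of which mostly restate the split between epithelium and the rest. Most like Erbb2 were Cadps2, Cldn23, Atp10b, Myo5c and Fam83b (r 0.99 each). Most like Erbb3 were Ephb2, Pard3, Ap1m2 and Egfr (0.96 each) and Evpl (0.95).

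A list of 39 other genes of ERBB signalling was read by role. In monocyte/macrophage-like cells, 37 had at least 10 UMIs on either side, and 5 stood 2-fold or more higher (13.5%, against 7.73% of all genes) and 10 lower (27.0%, against 18.1%) than in other gated cells. The list's median log2 fold was -0.14, and that of all genes tested -0.25. Higher were the neuregulin sheddase Adam17 (92.7 against 27.9 CPM), the feedback phosphatase Dusp6 (99.0 against 20.1 CPM), the inhibitor Errfi1 (89.0 against 34.0 CPM), the adaptor Gab1 (15.1 against 3.77 CPM) and the PI3-kinase subunit Pik3cb (28.6 against 11.1 CPM). Of the 4 sheddases on the list Adam17 alone passed 2-fold: Adam10 had a ratio of 1.47 (1.41 to 1.53), Adam19 1.12 (1.02 to 1.22) and Bace1 0.51 (0.38 to 0.67).

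Between C1q-low and C1q-high cells, 28 of the list had enough UMIs, 5 stood 2-fold or more higher (17.9%, against 5.80% of all genes) and 3 lower (10.7%, against 20.3%), with a median log2 fold of -0.19, against -0.41 for all genes. Like Nrg1, the EGFR ligands Areg (245 against 49.8 CPM; ratio 4.92, 4.56 to 5.30) and Hbegf (73.6 against 11.2 CPM; ratio 6.55, 5.62 to 7.65) were higher in C1q-low cells, as were the inhibitors Errfi1 (191 against 44.8 CPM) and Cblb and the adaptor Gab1. Lower were the sheddase Adam19 (3.55 against 36.0 CPM) and the response genes Etv5 (4.01 against 24.5 CPM) and Dusp6 (46.4 against 122 CPM). Adam17 stood at 67.5 against 104 CPM, short of 2-fold.

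In the epithelial comparison, 19 of 37 list genes stood 2-fold or more higher (51.4%, against 30.7% of all genes) and 6 lower (16.2%, against 13.5%), with a median log2 fold of 1.02, against 0.46 for all genes. The receptor Egfr stood at 20.7 against 0.29 CPM, and its ligands Btc at 22.4 against 0.095 CPM and Tgfa at 19.7 against 0.49 CPM. The membrane mucin Muc4, known to bind ERBB2, had 22.3 against 0.083 CPM, and the adaptor Grb7, known to bind ERBB2 and ERBB3, had 54.4 against 0.67 CPM. Of 6 response genes 5 were higher, among them Etv4 (14.2 against 0.12 CPM) and Phlda1 (796 against 70.7 CPM), and Dusp6 was not (49.1 against 41.3 CPM). Lower were Nrg2, Adam17, Adam19, Cbl, Grb2 and Pik3r1. The other neuregulins were sparse: Nrg4 had 1.75 against 0.26 CPM in epithelial-like cells, Nrg2 was mostly in plasma-like cells (125 UMIs, 10.2 CPM), and Nrg3 had no UMI.

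Within the epithelium few list genes differed by 2-fold. In Wif1/Notum/Nkd1-positive cells 3 of 33 were higher and 4 lower than in remaining cells, shares of 9.09 and 12.1% that lie near those of all genes. Higher were Etv5 (53.1 against 6.61 CPM; ratio 8.03, 5.89 to 11.2), Bace1 and Tgfa (26.7 against 12.3 CPM). Lower were Muc4 (2.10 against 51.7 CPM; ratio 0.041, 0.024 to 0.064), Egfr (9.18 against 36.4 CPM; ratio 0.25, 0.19 to 0.33), the receptor inhibitor Lrig1 (14.3 against 34.0 CPM) and Areg (85.1 against 172 CPM). In goblet-like cells 2 of 33 were higher (6.06%, against 5.60% of all genes), Muc4 (68.0 against 16.4 CPM) and Lrig1 (43.5 against 19.5 CPM), and 1 was lower (3.03%, against 16.0%), Etv5 (5.38 against 37.6 CPM). The remaining cells of that comparison include the 583 Wif1/Notum/Nkd1-positive cells, which were low in Muc4 and Lrig1 and high in Etv5, so the 2 comparisons are not independent and the higher share lies near that of all genes. In absorptive-marker cells 3 of 34 were higher and 9 lower, against 4.97 and 35.6% of all genes.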

How the data were processed

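Cells of 4 samples, 1 per group, were sequenced by droplet 3′ RNA-seq. The authors counted UMIs with Cell Ranger 3.0.2 against build mm10, per the submitters' processing notes, and deposited 1 matrix of raw counts per gene and barcode. Their gene annotation is not given in the sources used. A barcode was kept if it held 200 genes or more, 500 UMIs or more and no more than 20% mitochondrial UMIs. A cell entered 1 of 16 types when enough markers were detected (4 of 10 epithelial, 5 of 12 monocyte/macrophage, 4 of 9 neutrophil, 2 of 8 dendritic). Each type was scored as its markers detected divided by its minimum. Where a second type also passed, the top score had to reach 1.5 times the second score, otherwise the barcode (1034 of them) was left out as several. No doublet caller was used for the values reported. Subset limits are given with the results, and goblet-like cells needed 3 of 7 and absorptive-marker cells 2 of 6 markers. Members, lists and gates were chosen with earlier results of these data known, and the minimums after opening the counts.

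Counts were summed per type and library. CPM has exact Poisson, shares have Clopper-Pearson and ratios have conditional binomial 95% intervals. Detection was also read after thinning each cell to 1000 UMIs. Log2 folds used CPM plus 1. Named genes were the 4 members, list genes 2-fold apart in CPM plus 1, the 5 most similar genes per member, and the 5 highest and 5 lowest in Nrg1-positive cells. Scripts ran in Python 3.11.15 with numpy 2.4.6, scipy 1.17.1, pandas 2.3.3 and scanpy 1.11.5, and were checked on simulated data. A comparison by 1 further epithelial marker set is not reported here.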

Additional observations from a re-analysis of the deposited data

Results flagged for a closer look

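Nrg1 was also read in kept cells that no comparison used. Cells in no gate had 95.7 CPM (85.4 to 107; 311 UMIs in 1227 cells), of which those with 1 to 4 monocyte/macrophage markers had 109 CPM and those with none 34.2 CPM. Cells that passed several gates had 57.2 CPM (53.7 to 60.9; 984 UMIs in 1034 cells), and 835 of these UMIs were in the 579 cells that passed the monocyte/macrophage and neutrophil gates. In barcodes that the cell filter removed, with a median of 1369 UMIs, Erbb2 stood at 19.6 CPM (156 UMIs) and Erbb3 at 17.0 CPM (135 UMIs). All 4 values lie above the level that 3 counts allow, which is why they are listed.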

How the results depend on the processing

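Of 161 alternative values of log2 folds (CPM plus 1), 121 moved by less than the counting error of the reported value, 38 moved further, and 2 more turned the sign of a value that lay beyond its counting error. No paired analysis was possible because each group has 1 sample and the labels give no replicate numbers. Those 2 concern Nrg1 in Spp1/Arg1-positive over Spp1/Arg1-negative cells (0.35), at -0.036 when cells were thinned to 1000 UMIs before gating and -0.0091 without library 4, with a range of -0.0091 to 0.47 when 1 library was left out. That fold was 1.32 with clusters in place of gates, where the positive side was 1 cluster that was also C1q-low. It was 0.64 in cells of 10000 to 20000 UMIs, a setting added after seeing the data. Nrg1 in monocyte/macrophage-like over other gated cells (3.80) was 2.81 with a pseudocount of 10 CPM, 2.999 at 10000 to 20000 UMIs, 4.12 with clusters, 4.04 with 1 more marker required, 4.04 without the highest doublet scores, 2.91 when thinned first and 3.61 to 4.51 with 1 library left out. C1q-high over C1q-low (-1.07) was -0.89 at 10000 to 20000 UMIs, -1.25 with clusters, -0.64 when thinned first and -1.10 to -0.80 with 1 library left out. Neutrophil-like over monocyte/macrophage-like (-2.32) was -1.94 with the pseudocount, -0.10 at 10000 to 20000 UMIs, -3.43 with clusters, -2.71 without doublet scores and -2.66 to -2.27 with 1 library left out. Dendritic-like over monocyte/macrophage-like (-2.07) was -1.75 with the pseudocount, -0.0053 when thinned first and -2.96 to -1.79 with 1 library left out. In epithelial-like over other gated cells, Erbb2 (4.20) was 1.58 with the pseudocount, 5.21 when thinned first and 4.03 to 4.64 with 1 library left out, and Erbb3 (3.75) was 1.81 with the pseudocount, 3.10 against the unweighted mean of the other types and 3.44 to 4.30 with 1 library left out. In Wif1/Notum/Nkd1-positive over remaining epithelial-like cells at 10000 to 20000 UMIs, Erbb2 (-0.95) was -0.28 and Erbb3 (-0.78) was -0.12, with ranges of -1.10 to -0.69 and -0.83 to -0.51. In goblet-like cells, Erbb2 (0.03) was -0.79 with clusters (range -0.32 to 0.03) and Erbb3 (0.81) was 0.14 when thinned first (range 0.61 to 0.81). In absorptive-marker cells, Erbb2 (0.59) was -0.71 under a stricter cell filter and 2.66 when thinned first (range 0.38 to 0.60), and Erbb3 (0.44) was 2.06 when thinned first (range -0.17 to 0.77). Values within counting error of 0 also changed sign, Erbb2 in goblet-like cells in 4 of 13 settings (-0.19 with 1 more marker, -0.37 when thinned first, -0.79 with clusters and -0.32 without library 1), Erbb2 in absorptive-marker cells in 1 of 10 (-0.71) and Erbb3 there in 1 of 10 (-0.17 without library 2). Removing the 33 epithelial-like cells over 1% haemoglobin, also added after seeing the data, moved none past counting error. Absorptive-marker cells gave no value with clusters, 1 more marker or 10000 to 20000 UMIs, where under 20 cells were left. Leaving out library 1 or 2 took away only 10 or 12 monocyte/macrophage-like cells, and leaving out library 3 or 4 only 18 or 51 epithelial-like cells. Folds within those types could hardly move in these settings, so their unchanged values say little. The causes were not tested. The Erbb4 and absorptive-marker values rest on few UMIs, and 1 sample per group with no map from library to sample leaves the spread between animals unknown.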

Other observations

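When cells were clustered without the gates, the cluster with the highest Nrg1 among the named ones held 658 cells at 225 CPM. It was low in C1q as a whole (median 0 UMIs per 10000), and its median Spp1 and Arg1 level of 5.70 UMIs per 10000 lay above the limit of 3. Inhba, Serpinb2, Edn1, Timp1, Arg1 and Ccl24 were among its leading genes, and 53.2% of its cells were in the monocyte/macrophage gate. Inhba encodes a subunit of activin and Edn1 the vasoconstrictor endothelin 1. An unnamed cluster of 85 cells, led by Igfbp7, Col3a1 and Plvap, had 166 CPM from 58 UMIs. Egfr, the receptor for EGF and amphiregulin, followed Erbb3 over the 22 types and subsets (r 0.96) and Erbb2 (r 0.89), and 30 of the 1552 epithelial-like cells held all 3 receptors. Among epithelial subsets Egfr stood at 45.7 CPM in absorptive-marker, 29.8 CPM in goblet-like, 9.18 CPM in Wif1/Notum/Nkd1-positive and 38.4 CPM in ungated cells.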
